A study of Mus musculus with 7 samples.

Results

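The genes described here encode the proteins of the cytosolic ribosome. They were chosen by symbol, as every gene of the deposited matrix named Rpl or Rps with a number, plus *Rplp0*, *Rplp1*, *Rplp2* and *Rpsa*, leaving out pseudogenes marked -ps and the Rps6k kinases. This gave 87 of 33696 genes, 52 with large subunit symbols (Rpl) and 35 with small subunit symbols (Rps). The choice used no measured value. *Rps19bp1*, which encodes a protein that binds RPS19 and is itself no ribosomal protein, and the retrogene *Rps23rg1* matched the rule and were kept.

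The cells were cultured BB-p53n OPCs, oligodendrocyte progenitors of C57BL/6 pups of either sex at postnatal day 5–7 with floxed *Trp53* alleles, immunoselected with an antibody to CD140a (PDGFRα). A PDGFB-IRES-CRE retrovirus then removed *Trp53* and made the cells overexpress PDGFB. Their nuclei were sequenced as 1 library with 10x 3' chemistry. The study's brain samples with tumors, 3 early and 3 late, were not analysed here, nor were OPCs without the deletion or the retrovirus, so no level below has a control.

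The library held 154375410 UMIs (unique molecular identifiers, each standing for a captured transcript) in 10047 barcodes. The 8917 barcodes with 2000 to 8000 detected genes, called the kept nuclei, held 141138093 of them. A kept nucleus had a median depth of 13771 UMIs and a median of 4718 detected genes. Transcripts of the 13 mitochondrial mt- genes took 6.34% of their UMIs. No limit was set on mt- share, and 1954 of the kept nuclei had at most 5% mt- UMIs. The study lists as many nuclei after filtering, so values in these are given beside several of the comparisons. Of the OPC markers, *Olig1* was counted at 618, *Olig2* at 293 and *Pdgfra* at 256 CPM (UMIs of a gene per 1000000 UMIs), while *Cldn5* (endothelial) had no UMI and *Aif1* (microglia), *Dcn* (fibroblast) and *Gfap* (astrocyte) stood at 0.00709, 0.0213 and 1.13. Nuclei of 1 library are not replicates, so no difference below was tested. All intervals are 95% exact intervals that cover counting error only, and levels are given as CPM over all UMIs unless said otherwise.

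Ribosomes translate every mRNA, and their proteins are needed in equal numbers, with the acidic stalk proteins of the large subunit as the known exception. In mammals each protein is mostly encoded by a single functional gene on its own, and the genes lie scattered over the chromosomes. Their mRNAs start with a C followed by a run of pyrimidines, the 5' terminal oligopyrimidine (TOP) tract, through which translation is controlled together downstream of mTOR. Ribosome content is known to be tied to cell growth and proliferation, and p53 is stabilised when ribosome assembly fails. Ribosomal protein mRNAs are translated in the cytoplasm, whereas the transcripts measured here are those of isolated nuclei.

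The letters CTTTCC, a form of the TOP tract, were searched on the strand of the gene within 15 bases to either side of the annotated start of the Ensembl canonical transcript, which can differ from the outer end of the gene. These 30 bases held them in 6 of 87 members (6.90%), against 1.31% of all coding genes, and on either strand in 7 members (8.05%) against 2.44%. In the 151 bases from 50 before to 100 after the start they were found in 25 members (28.7%) on the gene strand, against 6.47% of coding genes, and in 29 (33.3%) on either strand, against 12.5%. Of these hits in the 30 bases, 5 are shown, in GRCm39, read 5′ to 3′ on the gene strand, with CTTTCC in capitals. They lie at chr4:152410135-152410164 (plus strand) for *Rpl22*, chr9:114811793-114811822 (minus) for *Rps27rt*, chr11:29497850-29497879 (minus) for *Rps27a*, chr14:4198698-4198727 (plus) for *Rpl15* and chr16:32876630-32876659 (plus) for *Rpl35a*.
Rpl22: cccgtctgactcctccCTTTCCcgacagcc
Rps27rt: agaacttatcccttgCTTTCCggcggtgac
Rps27a: ggccacgctcggatcttcCTTTCCgatccg
Rpl15: ggagaaagccttcttcCTTTCCtctggcgg
Rpl35a: cgactacgattttgcCTTTCCttgttccta
A match is a description of the letters in the window, and members without one can hold other pyrimidine runs.

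Together the members took 8.89% of the UMIs of the kept nuclei (12545652 UMIs, interval 8.88 to 8.89%), and 9.49% of the UMIs that are not mt-. Large subunit symbols held 4.88% and small subunit symbols 4.01%. Of the 87 members, 83 had at least 100 UMIs, and the median of their levels was 987 CPM. The median was 936 for the large and 1078 for the small subunit. Levels lay close together, with 74 members between 300 and 2000 CPM. The 90th percentile of the 83 members, 1773, was 3.62 times the 10th percentile, 489.9.

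At the top, 4 members stood above 2000 CPM. *Rps2*, which encodes a small subunit protein, was highest at 3136 (3127 to 3146). *Rplp1*, which encodes an acidic stalk protein that helps recruit translation factors to the large subunit, followed at 2572 (2564 to 2580). The large subunit genes *Rpl23* and *Rpl13* stood at 2191 and 2018. Also among the 10 highest were *Rpsa*, known as the laminin receptor, at 1979, *Rps27a*, which is translated as a fusion with ubiquitin, at 1881, *Rps12* at 1819, *Rps14* at 1785 and *Rpl23a* at 1726. The 10 highest held 23.6% of the member UMIs. The other stalk proteins were lower than *Rplp1*, at 1579 for *Rplp0*, which anchors the stalk, and 1113 for *Rplp2*, the partner of *Rplp1*. In the kept nuclei, 13 genes of any kind had more UMIs than *Rps2*.

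Per kb of exonic length the order changed, and the spread between the 90th and 10th percentiles widened to 7.78-fold. Counting near the 3' end does not scale with length in the way whole-transcript reads do, so both scales are given. *Rplp1*, with 587 exonic bases, led with 4382 CPM per kb, followed by *Rps2* with 1704, *Rps3a1* with 1327, *Rpl8* with 1040 and *Rps16* with 996 (*Rps3a1* and *Rps16* are named here after their values were seen). Of the 10 highest members by CPM, 5 were also among the 10 highest per kb (*Rps2*, *Rplp1*, *Rpl23*, *Rpl23a* and *Rps12*). Across the 83 members the CPM had a Spearman rho of 0.068 with exonic length, 0.150 with the span of the gene and 0.267 with the number of exons. Without paralogs and *Rps19bp1* (77 members) these were -0.017, 0.086 and 0.182. All are descriptions across genes of 1 library.

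**Figure D1:**
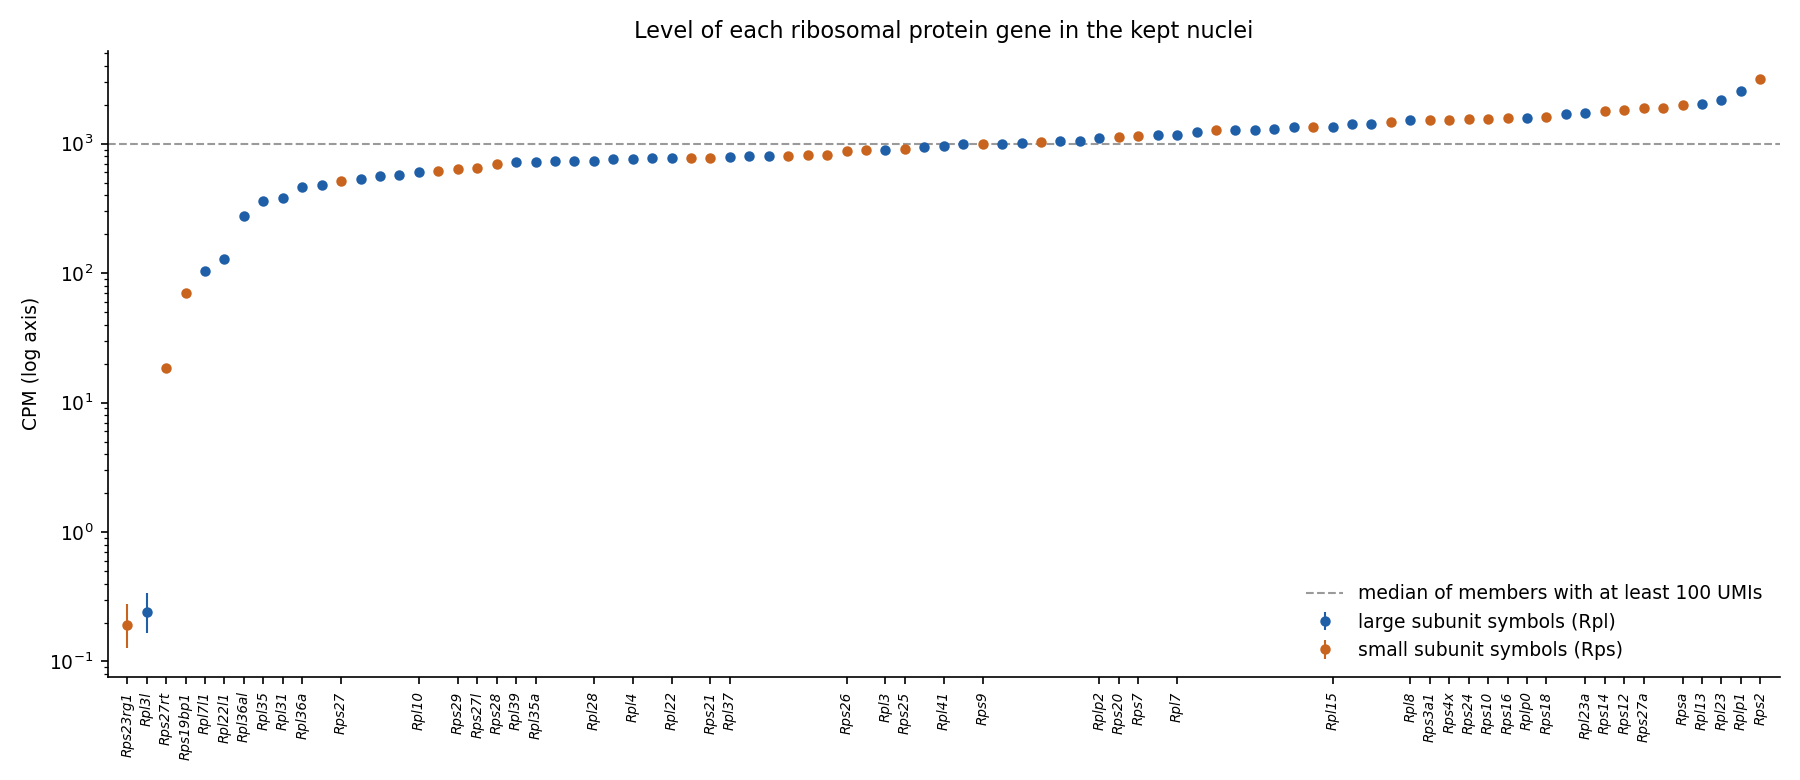
Level of each ribosomal protein gene in the kept nuclei, in CPM on a log axis, with 95% exact Poisson intervals as lines that are mostly smaller than the points and with the median of the 83 members that had at least 100 UMIs (987) as a dashed line. Most members lie between 300 and 2000, names mark genes described in the text, and the members below 300 are paralogs, retrogenes and *Rps19bp1*, with *Rpl10l* and *Rpl39l*, which had no UMI, left out.

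All 9 members below 300 CPM carry a paralog or retrogene symbol or are *Rps19bp1*. *Rpl10l* and *Rpl39l*, known as testis-enriched copies of *Rpl10* and *Rpl39*, had no UMI in the kept nuclei, and a count of 0 allows up to 0.0213 CPM. *Rps23rg1* had 27 UMIs, or 0.191 CPM (0.126 to 0.278), and *Rpl3l*, the form of *Rpl3* known from striated muscle, had 34 UMIs, or 0.241 (0.167 to 0.337). *Rps27rt* followed at 18.5, *Rps19bp1* at 70.4, *Rpl7l1* at 103, *Rpl22l1* at 129 and *Rpl36al* at 274. *Rpl35*, next in order, was the lowest member outside these, at 362.

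Paralogs were mostly well below the gene whose name they share. *Rpl22l1* stood at 129 CPM beside 772 for *Rpl22*, *Rpl7l1* at 103 beside 1160 for *Rpl7*, and *Rpl36al* at 274 beside 467 for *Rpl36a*, which is X-linked. *Rps27l*, known in human cells as a p53-inducible gene, was the exception and stood at 654 beside 516 for *Rps27*. These cells carry the *Trp53* deletion, and a level of *Rps27l* with intact *Trp53* was not analysed here.

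How far the counts of a pair can be told apart depends on their sequences, for which stretches of 60 coding bases of GRCm39 are shown. The coding bases of *Rps27rt* were identical to those of *Rps27* at 252 of 252 positions, and 91.1% of the 50-base stretches of its transcript (296 of 325) also occur in *Rps27*. The levels of *Rps27rt* and of *Rps27* are therefore uncertain, since reads over these stretches fit both genes. No 50-base stretch was shared between *Rps27* and *Rps27l*, between *Rpl22* and *Rpl22l1*, or between *Rpl36a* and *Rpl36al*, whose coding bases were identical at 76.2%, 70.8% and 87.7% of aligned positions. In the coding bases 1 to 60 of *Rps27* and its copies, capitals mark positions that differ from *Rps27*, 0 in *Rps27rt* and 18 in *Rps27l*.
Rps27: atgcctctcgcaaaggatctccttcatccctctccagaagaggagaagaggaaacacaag
Rps27rt: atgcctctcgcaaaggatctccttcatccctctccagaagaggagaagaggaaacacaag
Rps27l: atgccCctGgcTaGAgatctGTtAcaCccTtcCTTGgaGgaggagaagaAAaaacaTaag
The pair of *Rpl22* (coding bases 175 to 234) and *Rpl22l1* (154 to 213) is shown because of the opposite order of these paralogs across clusters, described further on. Capitals mark the 24 positions that differ from *Rpl22*.
Rpl22: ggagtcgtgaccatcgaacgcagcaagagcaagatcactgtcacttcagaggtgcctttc
Rpl22l1: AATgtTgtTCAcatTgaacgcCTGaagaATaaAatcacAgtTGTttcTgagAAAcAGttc

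To compare nuclei, UMIs were drawn at random down to 5000 in each, and the 157 nuclei below that depth were dropped, leaving 8760. Members of at least 300 CPM were detected in nearly every nucleus, with a median of 98.3% of thinned nuclei over 78 members, and 82.2% for *Rpl35*, the lowest of them. A thinned nucleus held a median of 445 member UMIs, with 299 and 615 at the 5th and 95th percentiles and extremes of 28 and 1089. The mean was 448 and the SD between nuclei 102, where binomial sampling alone would give an SD of 20.2. The variance over the mean (Fano factor) was 23.2 for the summed members, 13.1 for the large subunit and 11.5 for the small subunit. Of the comparison lists, 13 mt- genes had 38.3, 10 nuclear-retained long RNAs 20.2, 20 translation factors and other TOP genes 4.69, 102 respiratory chain genes 3.89 and 78 mitochondrial ribosomal proteins 2.01. The Fano factor of a list also depends on its share of the UMIs, which differs between the lists.

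Both subunits moved together between nuclei. The summed Rpl and summed Rps UMIs of a thinned nucleus had a Pearson r of 0.891 and a Spearman rho of 0.861 over 8760 nuclei of this library, and within the 8 clusters of nuclei described below r ran from 0.860 to 0.910. The UMIs of 1 member correlated with those of all other members with a median r of 0.420 over 83 members, while 416 other genes of at least 300 CPM had a median r with the members of -0.044. *Rps18* had the highest r at 0.598, followed by *Rpl23* at 0.574, *Rps10* at 0.561, *Rps27a* at 0.554 and *Rps14* at 0.544. The lowest were the low-level *Rps27rt* (0.037), *Rpl22l1* (0.038), *Rpl7l1* (0.071), *Rps19bp1* (0.089) and *Rpl36al* (0.101). Of members above 300 CPM, *Rps29* was lowest at 0.171. The correlation of a gene falls as its count falls, so these values are not comparable between high and low genes. Sorted by this r, *Rps18*, *Rps10* and *Rps29* were singled out after their values were seen.

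The 5 genes outside the list whose UMIs followed the summed members most closely included a further ribosomal protein gene, an elongation factor and a ribosome-bound scaffold. With each nucleus thinned to 5000 UMIs that are not mt- (8678 nuclei), the elongation factor *Eef1a1* had an r of 0.559, *Tpt1*, whose mRNA is known to carry a TOP tract, 0.531, the scaffold *Rack1* 0.501, the chaperone *Hsp90ab1* 0.393, and *Fau*, which encodes ribosomal protein S30 as a fusion and has no Rps symbol, 0.379. Lists taken as sums gave r with the members of 0.778 for translation factors and other TOP genes, 0.550 for respiratory chain genes, 0.357 for mitochondrial ribosomal proteins, 0.345 for snoRNA host genes, 0.192 for ribosome assembly factors and -0.262 for nuclear-retained long RNAs. All these values come from nuclei of 1 library and share its depth.

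Few nuclei were poor in member transcripts. In 150 kept nuclei (1.68%) members took under 4% of the UMIs, and in these mt- genes took 13.2% and the median depth was 6843.5 UMIs. From 4% to 8% there were 2548 nuclei with 5.90% mt- UMIs, from 8% to 12% 5639 nuclei with 6.40%, and from 12% up 580 nuclei with 6.92%. The small group under 4% was thus the shallowest and the richest in mt- UMIs, and the part of these in its low member share was not tested.

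Over all kept nuclei the share of members differed little with the total UMIs of a nucleus. From the shallowest to the deepest quartile of the kept nuclei it was 8.95%, 9.16%, 9.06% and 8.65%, a ratio of 0.966 (0.965 to 0.968) between the deepest and the shallowest. In deciles of depth it ran between 8.64% and 9.22%, the 5th percentile of nuclei was 2.05% in the shallowest decile and 5.76% in the next, and over 8760 thinned nuclei its rho with log10 total UMIs was -0.085. In the nuclei with at most 5% mt- UMIs the difference was larger, with 9.40%, 8.61%, 8.42% and 8.18% from the shallowest to the deepest quartile, a ratio of 0.870 (0.866 to 0.873). Of 83 members with at least 10 CPM over all barcodes, 1 differed by 1.5-fold, against 7.25% of the 9269 genes that pass the same minimum. The ratio was below 1 for 52 members, against 55.7% of these genes, with a median of 0.944 beside 0.977 over all of them.

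The member past 1.5-fold was *Rps29*, a small subunit gene, which stood at 829, 746, 636 and 549 CPM from the shallowest to the deepest quartile (0.662, 0.649 to 0.675). Its ratio was 0.652 in the nuclei with at most 5% mt- UMIs and 0.674 in those with 3000 to 7000 detected genes, where no member passed 1.5-fold. The next lowest ratios were those of *Rpl36al* (344 to 242, 0.705), *Rpl22l1* (153 to 118, 0.768), *Rps7* (1336 to 1043, 0.780) and *Rpl35* (424 to 332, 0.782). *Rps29*, *Rps7* and *Rpl36al* all lie on chromosome 12. At the other end *Rps19bp1* stood at 74.0 in the deepest and 63.9 in the shallowest quartile (1.16), *Rps2* at 3184 and 2778 (1.15), *Rpl4* at 773 and 678 (1.14), *Rpl15* at 1367 and 1200.4 (1.14) and *Rps24* at 1533 and 1364 (1.12).

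The share was higher in nuclei with a higher mt- share when mt- UMIs were left out of the denominator. From the lowest to the highest quartile of mt- share, members took 8.86%, 9.32%, 9.70% and 10.1% of the other UMIs, a ratio of 1.14 (1.142 to 1.146). Of all UMIs the shares were 8.47%, 8.80%, 9.05% and 9.25%. In deciles the share of all UMIs ran from 8.46% in the lowest to 9.38% in the ninth, and was 9.07% in the tenth, where the 5th percentile of nuclei fell to 1.98%. Over 8678 nuclei the rho of member and mt- share was 0.211 and Pearson's r 0.065. The relation was not seen in the 1954 nuclei with at most 5% mt- UMIs, where the range of mt- share is narrower. In their own quartiles of mt- share, members took 8.91%, 8.74%, 8.83% and 8.90% of the other UMIs, a ratio of 0.999 (0.996 to 1.003).

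The relation differed with depth. Within the shallowest quartile of total UMIs, members took 9.65%, 9.74%, 10.0% and 8.88% of the other UMIs from the lowest to the highest mt- quartile, so only the last of these lay below the first, at a ratio of 0.920. In that last group the 5th percentile of nuclei was 1.45% of all UMIs. Over 1991 nuclei of this shallowest quartile rho was -0.034 and Pearson's r -0.239. The 239 nuclei with under 5000 UMIs that are not mt- were left out of these values. In the other 3 quartiles of depth the ratio was 1.19, 1.17 and 1.16, with rho of 0.274, 0.303 and 0.307 and Pearson's r of 0.166, 0.277 and 0.292. With mt- quartiles formed within each cluster, the ratio lay between 1.01 and 1.24 and rho between 0.032 and 0.320, while Pearson's r was negative in clusters 0 to 3 (-0.128, -0.157, -0.030 and -0.058) and between 0.053 and 0.302 in the others. With the quartiles of all kept nuclei, members in cluster 3 took 8.67%, 9.26%, 9.47% and 7.90%, the last over 92 nuclei. The quartiles also differed in their clusters: cluster 0 gave 35.3% and cluster 3 29.9% of the nuclei in the lowest mt- quartile, and cluster 2 gave 28.7% and cluster 3 4.13% in the highest.

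**Figure D2:**
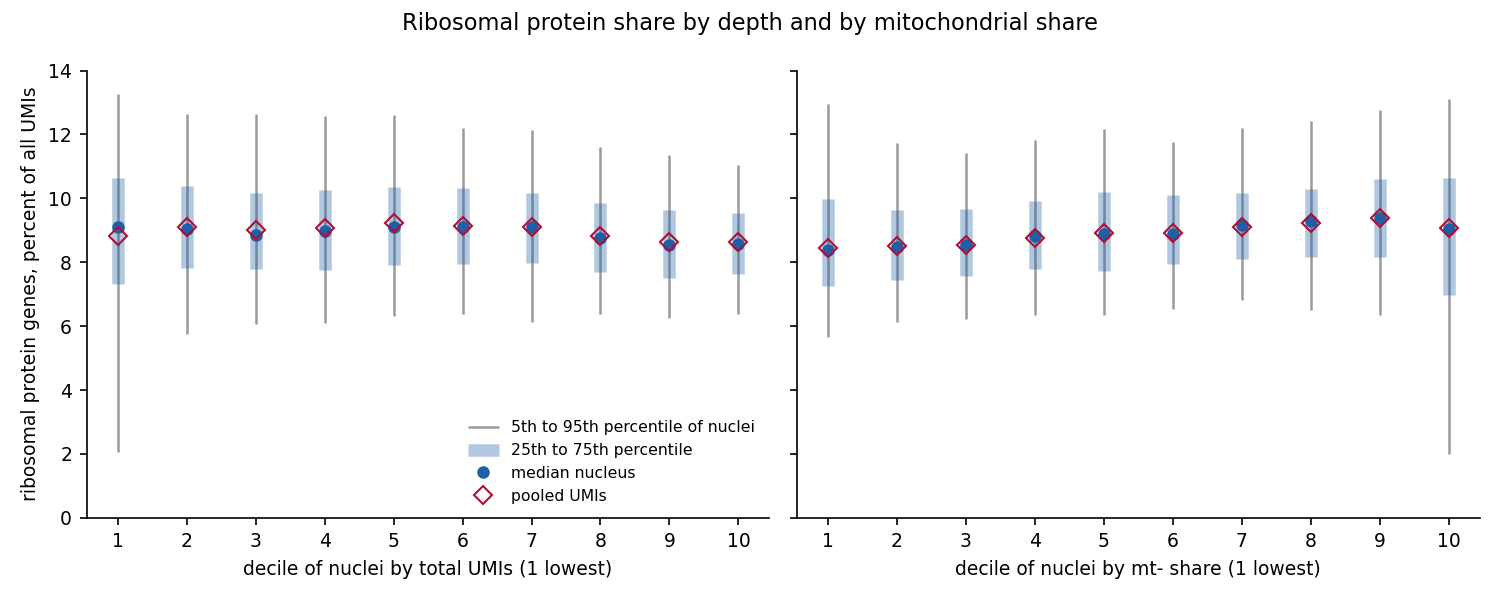
Share of ribosomal protein genes in all UMIs, in percent, for deciles of the kept nuclei by total UMIs (left) and by mt- share (right), with the median nucleus as a point, the 25th to 75th and 5th to 95th percentiles of nuclei as bars and lines, and the pooled share as a diamond. The pooled share stays between 8.64% and 9.22% over depth and reaches 9.38% in the ninth decile of mt- share, and the 5th percentile is low in the shallowest decile (2.05%) and in the last decile of mt- share (1.98%).

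Over all kept nuclei, nearly all members were higher where mt- share was higher. In CPM over non-mt- UMIs, 79 of 83 were higher in the highest than in the lowest mt- quartile, against 52.3% of 9256 genes, and 78 had an interval wholly above 1. In the nuclei with at most 5% mt- UMIs, 39 of 83 were higher, against 54.3% of genes, with a median ratio of 0.997 beside 1.01. The median ratio was 1.12 for the members and 1.01 over all genes, beside 1.06 for translation factors and other TOP genes, 1.05 for respiratory chain genes and 1.04 for ribosome assembly factors. Past 1.5-fold was 1 member, against 3.63% of all genes. This was *Rpl22l1*, which ran the other way, at 165, 149.9, 127 and 108 from the lowest to the highest mt- quartile (0.651, 0.624 to 0.680). In the nuclei with at most 5% mt- UMIs its ratio was 1.04 (0.954 to 1.130). Its paralog *Rpl22* stood at 743, 798, 852 and 912 in the same quartiles.

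The members next to *Rpl22l1* were again *Rpl36al* (307 to 271, 0.882), *Rps29* (719 to 646, 0.898) and *Rps7* (1239 to 1143, 0.923), all below 1. *Rplp0*, the anchor of the stalk, was nearly level, at 1671 and 1679 (1.005, 0.993 to 1.017). The highest ratios belonged to *Rps24*, at 1366, 1577, 1764 and 1924 through the quartiles (1.41, and 1.09 in the nuclei with at most 5% mt- UMIs), *Rps10*, at 1420 and 1962 in the outer quartiles (1.38), *Rpl41*, the smallest ribosomal protein, at 859 and 1171 (1.36), *Rps28*, at 649.8 and 871 (1.34), and *Rps2*, at 2861 and 3830 (1.34).

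Barcodes outside the limits on detected genes held other amounts of member RNA. In the 918 barcodes with under 2000 genes, members took 6.0% of the UMIs (5.96 to 6.03%) and mt- genes 19.5%. The ratio to the kept nuclei was 0.675 of all UMIs and 0.785 of the UMIs that are not mt-. Each of the 83 members was below 1, against 73.6% of all genes, and 37 were at least 1.5-fold lower, against 16.9%. Over UMIs that are not mt-, 82 were below 1, against 50.8%, and 4 were 1.5-fold lower (*Rps19bp1*, *Rpl4*, *Rpl8* and *Rpl31*), against 5.46%. The median ratio was 0.683 for members and 0.855 over all genes, and 0.794 and 0.994 over UMIs that are not mt-. Over all UMIs, the lowest were *Rps19bp1* (34.1 against 70.4 CPM, 0.485), *Rpl4* (0.542), *Rpl8* (0.555), *Rpl31* (0.571) and *Rps25* (0.578). Highest were *Rpl22l1* (121 against 129, 0.933), *Rps21* (0.845), *Rpl37* (0.836), *Rps20* (0.803) and *Rps27rt* (0.801).

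Within these barcodes the relation of the share of all UMIs to mt- share had another shape than in kept nuclei. By quartile of mt- share, with 1.75%, 7.65%, 20.4% and 46.0% mt- UMIs, members took 8.42%, 9.41%, 4.16% and 2.56% of all UMIs. The mt- UMIs are part of this denominator and lower the last shares, though by less than the whole fall. Of UMIs that are not mt-, the member share had a rho with mt- share of -0.091 over the 918 barcodes. A rank correlation can be weak where a share rises and then falls, so it does not show that the fall is absent from these UMIs. The 212 barcodes with over 8000 genes had 9.35% member UMIs, a ratio of 1.05, at the 6.34% mt- share of the kept nuclei. None of the 83 members passed 1.5-fold there, against 0.529% of all genes, and the lowest was *Rps26* at 0.759 (665 against 876 CPM).

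Nuclei were assigned to cell cycle phases from 43 S and 54 G2/M genes. Members took 9.55% of the UMIs of 2661 G1 nuclei, 8.79% of 2300 S nuclei and 8.61% of 3956 G2/M nuclei. The ratio of G1 to G2/M was 1.11 (1.108 to 1.111). Median depth ran from 11780 UMIs in G1 to 12670.5 in S and 16473.5 in G2/M, and mt- share from 6.64% to 6.26% and 6.22%. G1 was highest within every quartile of total UMIs, in which median depth still differed somewhat between phases, with 9.57%, 10.04%, 9.70% and 9.04%. The G1 over G2/M ratio in these quartiles was 1.15, 1.17, 1.10 and 1.05, and within clusters it lay between 1.09 and 1.29. The 1.29 was that of cluster 2, which had only 37 G2/M nuclei, and the next highest was 1.14 in cluster 0.

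The shift between phases was small and shared by the members. In G2/M over G1, 82 of 83 were below 1, against 48.5% of all genes, and 0 passed 1.5-fold, against 4.51%. The median ratio was 0.904 beside 1.00 over all genes. *Rps26* (812 against 996, 0.816), *Rpl37* (0.830) and *Rps18* (0.847) were lowest, and *Rpl7l1*, which takes part in ribosome assembly, was highest at 1.01. In S over G1, which shares its G1 nuclei with the former, 80 of 83 were below 1, against 52.4%, and 0 passed 1.5-fold, against 4.85%. *Rpl22l1* (1.08), *Rpl36al* (1.04) and *Rps29* (1.03) were the 3 above 1. The members named for phases were picked after their values were seen.

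The 8 clusters of kept nuclei, numbered 0 to 7 by size, were re-derived with Seurat by the settings of the study from the kept nuclei and not from the smaller set it lists, so they are not the clusters it describes, which are fewer. Only 1 of the 3000 variable genes behind them was a member. Members took 8.49%, 8.80%, 9.74%, 8.44%, 8.98%, 8.74%, 9.46% and 7.62% of the UMIs of clusters 0 to 7. The highest share, in cluster 2, was 1.28 times the lowest, in cluster 7 of 182 nuclei (1.272 to 1.285). In the nuclei with at most 5% mt- UMIs the shares ran from 7.14% in cluster 7 (57 nuclei) to 9.52% in cluster 2 (104) and 9.81% in cluster 6 (44), a ratio of 1.37 between the outer ones. The mt- share ran in a like order, at 5.42%, 6.52%, 7.23%, 5.30%, 6.70%, 6.40%, 7.31% and 5.42%, and median depth from 10005.5 UMIs in cluster 3 to 30276 in cluster 5. The part of either in the differences was not tested.

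**Figure D3:**
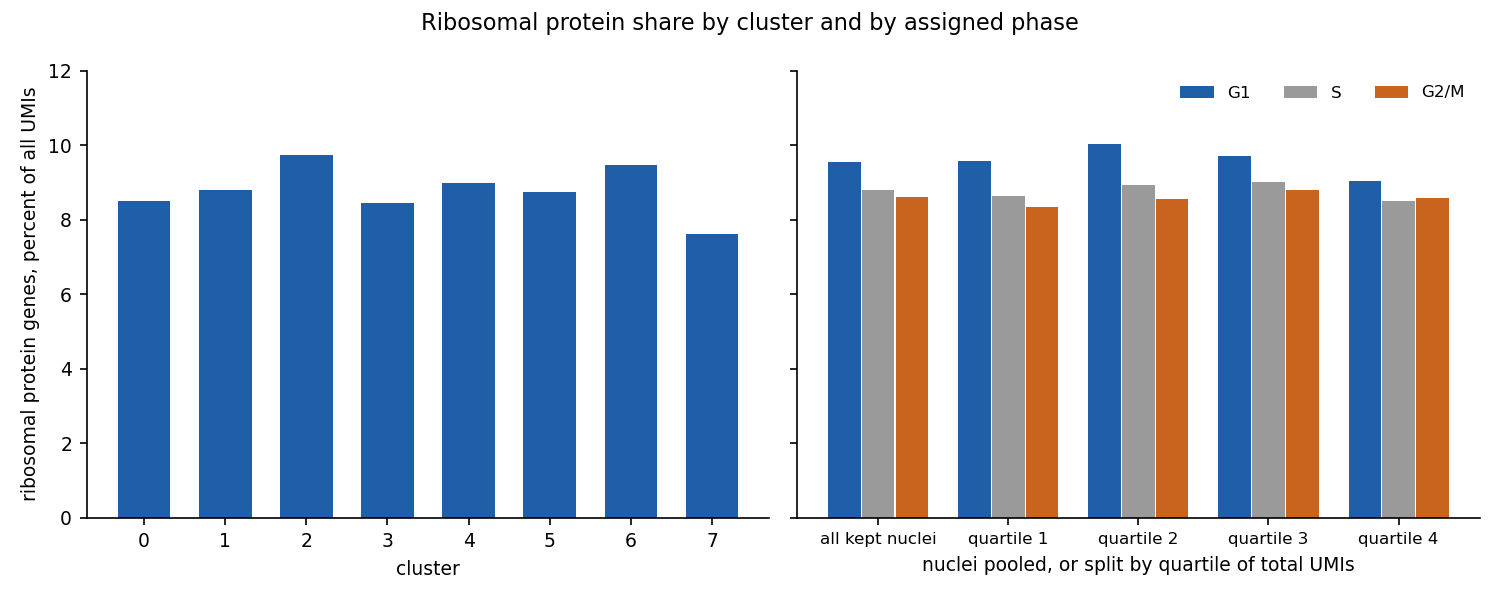
Share of ribosomal protein genes in all UMIs, in percent, for clusters 0 to 7 (left) and for assigned G1, S and G2/M nuclei, pooled and within each quartile of total UMIs (right), as pooled shares whose counting intervals are too narrow to draw. The share runs from 7.62% in cluster 7 to 9.74% in cluster 2, and G1 is the highest phase in each quartile of depth.

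Single members departed from this common pattern in some clusters. Against all other kept nuclei, 3 of 83 differed by 1.5-fold in cluster 1 (against 31.7% of all genes), 3 in cluster 3 (12.8%), 2 in cluster 0 (8.88%), 2 in cluster 7 (19.8%), 1 each in clusters 2 (11.4%), 4 (10.3%) and 6 (9.44%), and 0 in cluster 5 (0.281%). In each cluster the share of members past this fold was below the share over all genes. Since the clusters were formed from the same counts, these values are descriptions. The members described next are some of those that differed along with the genes around them, past 1.5-fold or not, and then *Rpl22l1*, *Rpl22* and *Rps19bp1*.

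The chromosome 14 members were low in cluster 3. *Rps24* (chromosome 14, 24537193 to 24547028, plus strand), a small subunit gene known for its mutation in Diamond-Blackfan anemia, stood at 867 CPM there and between 1439 and 1837 in the other clusters, a ratio to the other nuclei of 0.529 (0.520 to 0.538). *Rpl15* (chromosome 14, 4198250 to 4201887, plus strand), of the large subunit, stood at 953 there and between 1088 and 1556 elsewhere (0.677, 0.666 to 0.688). Cluster 3 was thus the lowest of 8 for both. Chromosome 14 as a whole took 2.10% of the UMIs of cluster 3 and 3.02% to 3.91% of those of the others, and its 329 other genes of at least 10 CPM had a median ratio of 0.547. The 20 genes nearest to *Rps24* had a median of 0.562, and those nearest to *Rpl15* 0.736. In 2 Mb steps the other genes had medians between 0.496 and 0.530 up to 10 Mb past *Rps24*. The step up to 2 Mb before it had 0.468 (3 genes). In the steps from 2 to 4 and 4 to 6 Mb before it the medians were 0.838 (14 genes) and 0.942 (8 genes). From 8 to 20 Mb before it, with few genes per step, medians lay between 0.674 and 0.841. Relative to all other members, both chromosome 14 members together stood at 0.625 (0.618 to 0.633).

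The chromosome 12 members were high in cluster 1. *Rps7* (28677933 to 28686292, minus strand) stood at 1526.5 there and between 854 and 1285 in the other clusters, *Rps29* (69204495 to 69205960, minus strand) at 845 and between 484 and 789, and *Rpl36al* (69228230 to 69231234, minus strand) at 376 and between 193 and 329. Their ratios to the other nuclei were 1.43, 1.40 and 1.48, all short of 1.5-fold, and the 326 other genes of chromosome 12 had a median of 1.48. The same 3 members were below 1 by total UMIs and by mt- share, where the other genes of chromosome 12 had medians of 0.802 and 0.839.

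Smaller stretches gave like pictures. In cluster 3, *Rpl41* (chromosome 10, 128383979 to 128387628, minus strand) stood at 564 CPM, against 751 to 1203 elsewhere (0.556), and *Rps26* (128460395 to 128462636, minus strand) at 548, against 720 to 1214 (0.596). Both lie near the end of chromosome 10. The 20 other genes nearest to each, within 0.337 Mb of *Rpl41* and 0.313 Mb of *Rps26*, had medians of 0.555 and 0.552. The 38 genes within 2 Mb before *Rps26*, which include the near ones on that side, had 1.37, and all of chromosome 10 had 0.929. In cluster 1, members near the start of chromosome 7 were low, with *Rpl28* at 497 against 722 to 843 in the other clusters (0.634) and *Rps9* at 703 against 974 to 1083 (0.675, short of 1.5-fold). The 20 genes nearest to each had a median of 0.727, and chromosome 7 as a whole 1.25. The members *Rpl28*, *Rps9*, *Rpl41* and *Rps26* were singled out here after their values were seen.

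**Figure D4:**
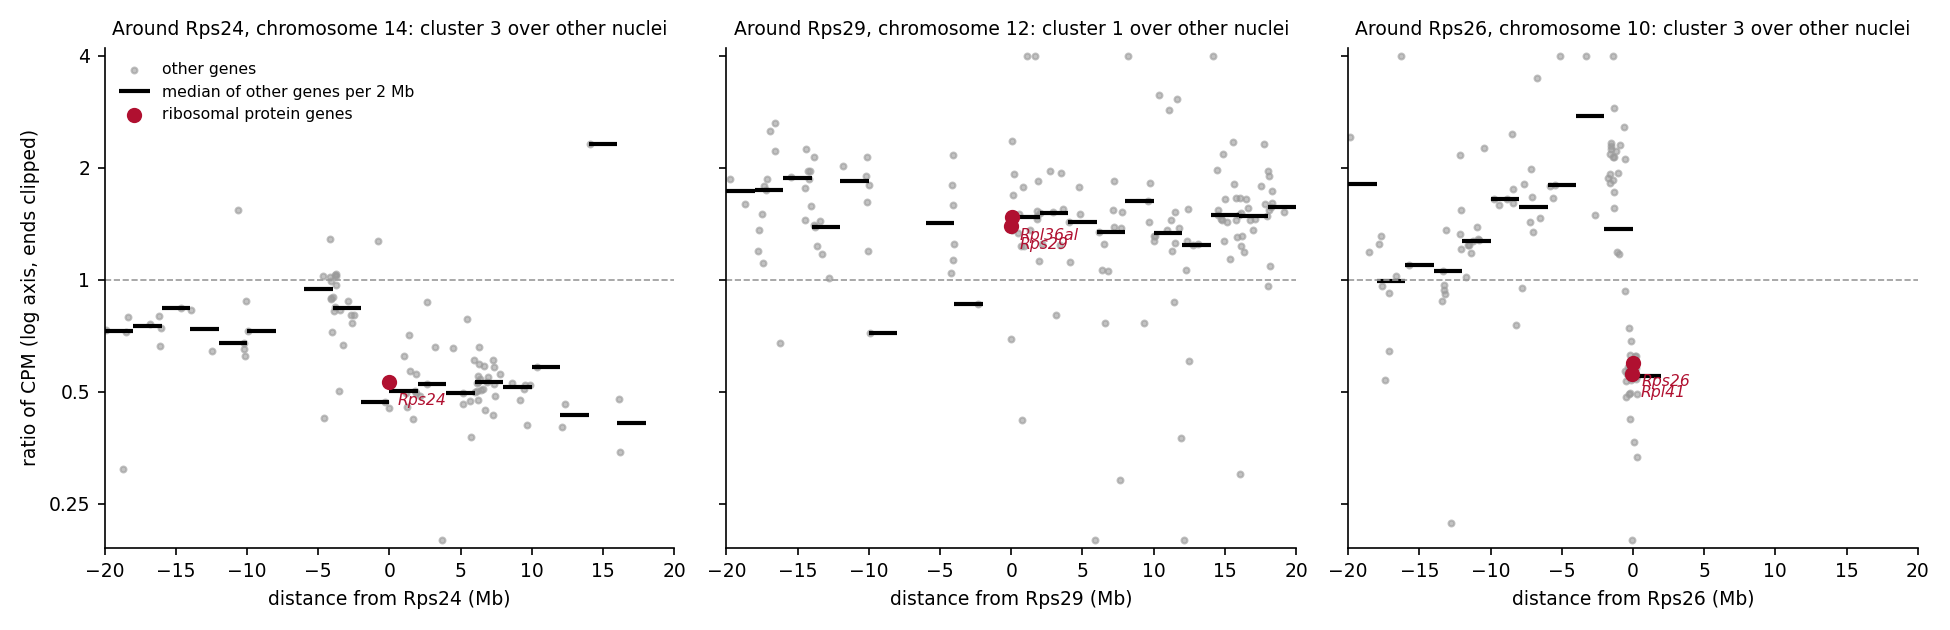
Ratio of CPM for genes within 20 Mb of *Rps24* (cluster 3 over other nuclei), *Rps29* (cluster 1) and *Rps26* (cluster 3), on a log axis with ends clipped, against the distance in Mb, with other genes in gray, their median per 2 Mb as black bars and ribosomal protein genes in red. *Rps24*, *Rpl41* and *Rps26* lie at 0.529, 0.556 and 0.596 beside nearest genes that are mostly also below 1, while most genes further before *Rps26* are above 1, and *Rps29* and *Rpl36al* lie at 1.40 and 1.48 among genes mostly above 1.

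Over all 83 members, which lie on 19 chromosomes, a member's ratio went with that of its neighbors. Pearson's r between the log2 ratio of a member and the median log2 ratio of its 20 nearest other genes was 0.903 for cluster 3, 0.750 for cluster 1 and 0.757 for mt- share, and 0.751 for total UMIs. It was between 0.615 and 0.744 for clusters 0, 2, 4, 6 and 7. It was 0.319 for cluster 5, 0.258 for S over G1 and 0.177 for G2/M over G1, where members differed little among themselves (SD of the log2 ratio 0.05 for cluster 5 and G2/M, against 0.27 for cluster 1 and 0.24 for cluster 3). These are descriptions across genes counted in the same nuclei, some of which share neighbors, and the comparisons share nuclei as well. In the nuclei with at most 5% mt- UMIs, r was 0.843 for cluster 3 and 0.708 for cluster 1. An exception was *Rpl23a*, chosen after its value was seen, at 0.704 in cluster 1 where its neighbors had 1.10. What sets the shift that members share with their neighbors was not tested.

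**Figure D5:**
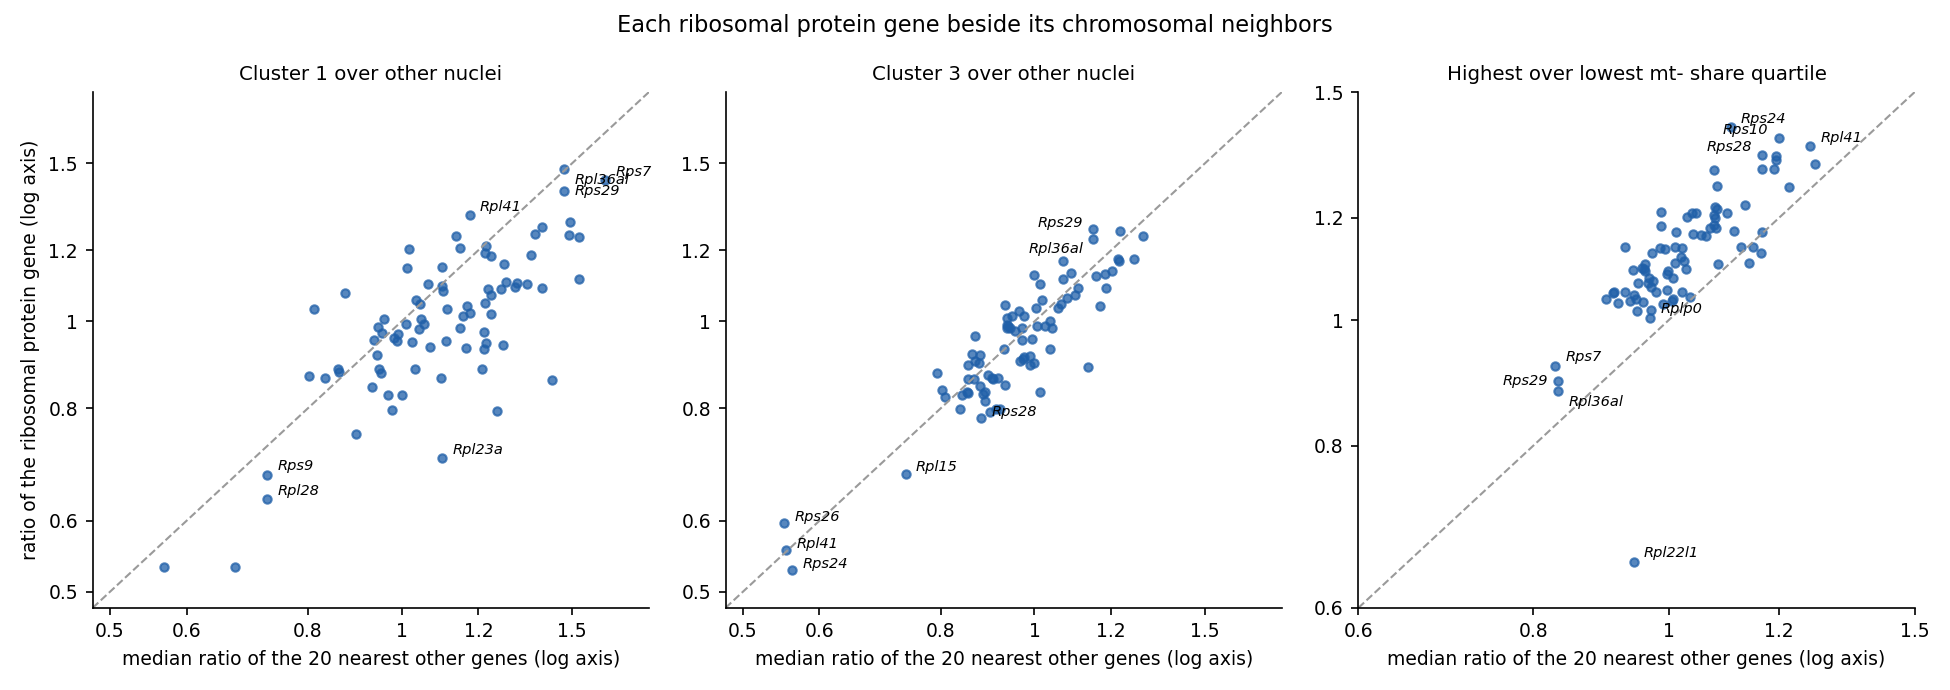
Ratio of each of 83 ribosomal protein genes against the median ratio of its 20 nearest other genes on the chromosome, both on log axes, for cluster 1 over other nuclei, cluster 3 over other nuclei, and the highest over the lowest quartile of mt- share, with a dashed line where both are equal. The ratio of a member rises with that of its neighbors, with r of 0.750, 0.903 and 0.757, which does not measure closeness to the line. Most members lie above the line for mt- share, and *Rpl22l1* lies far below it at 0.651.

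*Rpl22l1* (chromosome 3, 28859585 to 28861573, plus strand) differed by far more than the genes near it or on its chromosome. It stood at 235, 124, 81.1, 119, 82.3, 119, 74.6 and 298 CPM in clusters 0 to 7, a ratio of 2.22 in cluster 0 and 2.35 (2.17 to 2.55) in cluster 7, where its 20 nearest genes had medians of 1.07 and 1.14. In the nuclei with at most 5% mt- UMIs these ratios were 2.02 and 1.49 (1.27 to 1.73, over 57 nuclei of cluster 7). It was the member past 1.5-fold in clusters 2 (0.590), 4 (0.601) and 6 (0.555). There the other genes of chromosome 3 also had medians below 1, at 0.851, 0.908 and 0.857. By mt- share its neighbors had 0.944, against its own 0.651.

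*Rpl22* (chromosome 4, 152410150 to 152418542, plus strand), which binds RNA and whose protein is known to repress expression of *Rpl22l1*, ran in the opposite order. It stood at 698, 768, 916, 650.3, 815, 762, 879 and 431 in clusters 0 to 7 and had its lowest level in cluster 7 (0.554, 0.518 to 0.590). *Rpl22l1* was lowest in clusters 6, 2 and 4, where *Rpl22* was highest. The rho between both levels over 8 clusters was -0.810, a description over clusters of 1 library, and *Rpl22l1* over *Rpl22* ran from 0.0849 in cluster 6 to 0.693 in cluster 7. The other pairs had a rho of -0.405 (*Rpl36al* and *Rpl36a*), -0.262 (*Rps27l* and *Rps27*) and -0.167 (*Rpl7l1* and *Rpl7*). The other genes of chromosome 4 had median ratios of 0.928, 0.893, 1.07, 0.941, 1.09, 1.02, 1.07 and 0.936 in clusters 0 to 7. Those of chromosome 3, which holds *Rpl22l1*, had 1.06, 1.18, 0.851, 1.02, 0.908, 0.992, 0.857 and 0.967. Both chromosomes thus also ran mostly in opposite directions. Neither their part in the order of *Rpl22* and *Rpl22l1* nor that of repression was tested. Also past 1.5-fold was *Rps19bp1* in cluster 0, at 44.9 against 62.5 to 90.7 in the others (0.590).

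The 4 X-linked members *Rpl39*, *Rpl10*, *Rps4x* and *Rpl36a* stood at 727, 603, 1529 and 467 CPM. The culture came from pups of either sex, and nuclei were split by *Xist* and 4 Y-linked genes. The X-linked members gave 3.79% of member UMIs in 1934 nuclei with *Xist* and no Y-linked UMI, 3.62% in 2309 with Y-linked UMIs and no *Xist*, 3.79% in 4410 with neither and 3.70% in 264 with both. The ratio of the *Xist* to the Y-linked nuclei was 1.05 (1.036 to 1.054). A nucleus without a UMI of either is not thereby without the transcript, and the mt- share of these nuclei was 6.56% and 5.64%.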

How the data were processed

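A single-nucleus RNA-seq library of cultured BB-p53n OPCs was used. The authors ran Cell Ranger 8.0.1 on mm39 and deposited the raw count of UMIs for every gene in every called barcode, with no normalization. No control library or replicate was analysed here.

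Nuclei with 2000 to 8000 detected genes, the limits of the study's methods, were kept, which left 8917 with no limit on mt- share. The study lists 1954 nuclei after filtering, the number that remains here with at most 5% mt- UMIs, at the same mean of 15395.4 UMIs. The main values are therefore from a larger set than the study's, and these nuclei served as an alternative, with clusters taken from the larger one. Counts were summed over nuclei and divided by all UMIs, or, for comparisons by mt- share, by UMIs that are not mt-. Intervals are exact Poisson for levels and for shares of UMIs, and exact conditional binomial for ratios, at 95%. They cover counting error only, are narrow at 141138093 UMIs, and stand in place of tests. Gene ratios are given for genes of at least 10 CPM (UMIs of a gene per 1000000 UMIs) over all barcodes, which 83 of 87 members passed, and 1.5-fold was the size named. Nuclei were thinned to 5000 UMIs for spread, detection and correlations. Doublets were not removed. Clusters and phases came from Seurat 5.3.0 in R 4.3.3 (scale factor 1000, 3000 variable genes, scaling with total counts regressed out, 20 components, 200 neighbors, resolution 1.0), other values from Python 3.11.15 with numpy 2.4.6, scipy 1.17.1 and pandas 2.3.3. The steps were tested on simulated data.

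Gene positions, windows and coding sequences are from GENCODE vM39 on GRCm39, the build of mm39, which matched all 87 members and 33185 of 33696 genes. Reads shared with near-identical copies, such as processed pseudogenes, can lower or raise single members. Results by name for some members are not reported here.

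The rule for members used symbols and no measured value. Earlier results of these data were known when it and the comparison lists were chosen. Named were the 10 highest and 10 lowest members, the 5 highest and 5 lowest ratios by total UMIs, mt- share and in barcodes below the limit, paralogs, stalk proteins, *Rpsa*, *Rps19bp1*, members on chromosome 14 and X, and 5 genes most like the members. Alternatives changed the nuclei kept, the denominator, the members counted, the scale, the thinning, the fold, the low-count filter and the clustering.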

Additional observations from a re-analysis of the deposited data

How the results depend on the processing

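With 1 library, no alternative carries a replicate error, and a value is counted as moved when it left the counting interval of the value reported or, without an interval, differed at 2 decimals. A ratio counted as reversed when its interval lay wholly on the other side of 1. By this rule 20 alternatives kept their value, 60 moved it and 1 reversed it. The ratio by mt- share was reversed, at 0.920, in the shallowest quartile of total UMIs, and was 0.999 (0.996 to 1.003), an interval that holds 1, in the nuclei with at most 5% mt- UMIs. In the other quartiles of depth it was 1.19, 1.17 and 1.16, over all UMIs 1.09 and without paralogs and *Rps19bp1* 1.15. Within clusters 0 to 7, chosen after seeing the data, it was 1.04, 1.01, 1.13, 1.06, 1.08, 1.15, 1.08 and 1.24.

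In nuclei with at most 5% mt- UMIs, the member share was 8.47%, the spread between genes 3.75, the Fano factor 23.6, the ratio by total UMIs 0.870, the ratio between clusters 1.37 (cluster 6 over 7), the ratio between phases 1.12 and the correlation of both subunits 0.899, with 0 members past 1.5-fold by mt- share and, chosen after seeing the data, 39 members above 1 by mt- share. With 3000 to 7000 detected genes these were 8.95%, 3.60, 21.1, no move in the ratio by total UMIs, 1.31, 1.11 and 0.882, with 0 members past 1.5-fold by total UMIs (*Rps29* at 0.674). Over UMIs that are not mt-, the share was 9.49%, the ratio by total UMIs 0.962, that below the limit on genes 0.785, with 4 members 1.5-fold lower there (chosen after seeing the data), that between clusters 1.30 and that between phases 1.11. Without paralogs and *Rps19bp1* the share was 8.76%, the spread 3.04 and the Fano factor 23.2.

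The spread was 7.78 per kb and 4.24 over members with at least 1 UMI. Thinning to 3000 UMIs gave a Fano factor of 14.9 and a correlation of 0.849. Without the 8% of nuclei with the most UMIs the ratio by total UMIs was 0.969. At 2-fold, 0 members passed by total UMIs or by mt- share. At resolution 0.4 the ratio between clusters was 1.27 and that of the chromosome 14 members 0.636. The ratio of G1 to G2/M, in splits chosen after seeing the data, was 1.14, 1.10, 1.29, 1.13, 1.09, 1.09, 1.09 and 1.12 within clusters and 1.15, 1.17, 1.10 and 1.05 within quartiles of depth. The cause of these moves was not tested. No paired analysis was possible because the study has 1 library of these cells. Depth limits *Rpl3l*, *Rps23rg1*, *Rpl10l* and *Rpl39l*, for which no ratio was given.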
